A study of Drosophila melanogaster with 2 samples.

Results

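The aminoacyl-tRNA synthetase genes were taken by name: every protein-coding gene of the Drosophila melanogaster annotation (Ensembl release 115) whose symbol is 1 or 2 three-letter amino acid names followed by RS, with or without a suffix. This gave 33 genes of 13968 protein-coding genes on the 7 chromosome arms. By symbol, 17 are cytoplasmic, 15 are mitochondrial (suffix -m) and 1, GluProRS, is bifunctional. A gene named without the suffix may also make a mitochondrial form, which the symbol does not show. The genes of the cytoplasmic phenylalanine enzyme, alpha-PheRS and beta-PheRS, fall outside the naming rule and are described with the companion genes.

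Aminoacyl-tRNA synthetases join each amino acid to the transfer RNAs that carry its anticodon, the step that sets the genetic code in every cell. The cytoplasmic enzymes serve the ribosomes of the cytoplasm, and the mitochondrial ones are made from nuclear genes and imported to serve the ribosomes of the organelle. The enzymes have 1 of a pair of unrelated catalytic folds, called class I and class II, and GluProRS carries one of each. They are housekeeping genes, needed in growing cells of all kinds.

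Chromatin immunoprecipitation with sequencing (ChIP-seq) was performed on whole embryos aged 0 to 24 h of the al-GFP strain, transgenic flies that express al-eGFP fusion proteins from an insertion directed at al, using an antibody against GFP. The al gene encodes Aristaless, a DNA-binding protein of the paired homeodomain class that is best known for shaping the distal ends of legs, antennae and wings. The chromatin was sonicated, with a stated size range of 200 to 800 bp, and both libraries, biological replicates 1 and 2, belong to 1 group, which leaves no groups to compare. Control libraries that the labels mention were not analysed here, so signal from Aristaless and signal that any immunoprecipitation would give at open promoters cannot be told apart. Whole embryos mix all cell types, so binding in a few cells and weak binding in many cannot be told apart either. The labels give neither the driver of expression nor the number of embryos behind each replicate.

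The main peak list, made by the authors from both replicates and called the series list here, held 3848 peaks, 3822 of them on the arms. Their median signal, the authors' own measure of enrichment, was 90.2. A conservative list held 3493 peaks, the list of replicate 1 alone held 2987 and that of replicate 2 alone held 2114. Each list has its own scale, so signals are ranked within a list, and the read depth behind them is unknown here. Longer ranked lists hold entries that did not pass the authors' threshold on the irreproducible discovery rate (IDR, an estimate of how often a peak would fail to recur in a second input). A gene was counted when a peak's summit lay within 500 bp of its own transcription start site (TSS), called a TSS summit here, or in the wider window of the gene with 2 kb on either side.

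The sequences below are those of the strongest peaks at a synthetase TSS whose summit lies outside annotated exons, and of the peaks beside ArgRS and HisRS, which hold a searched motif. Each is the release 6 (dm6) sequence on the strand of the gene, written 5′ to 3′, and lies upstream of the synthetase TSS. It runs from 80 bases beyond the summit towards that TSS for at most 300 bases and is cut at annotated exons. The ThrRS stretch reaches that limit and stops short of its TSS. The peak at LeuRS-m also holds a searched motif, CACGTG, and is not shown. GluProRS is shown at chr3R:23958392-23958610 on the minus strand, ThrRS at chr2L:12103430-12103729 on the plus strand and IleRS at chr3L:22288441-22288664 on the plus strand. ProRS-m is shown at chr3L:2651851-2652087 on the minus strand, ArgRS at chrX:15844146-15844380 on the minus strand and HisRS at chrX:18515303-18515427 on the plus strand. Capitals mark a DNA replication-related element (DRE, TATCGATA) in IleRS and ArgRS, a homeodomain core (TAATTA) in ProRS-m and the paired-class dimer with a spacer of 2 bases in HisRS. TATAAA and GAGAG matches are left in lower case. The sequences of GluProRS, ThrRS and ProRS-m are dominated by A and T, with a G+C content of 30.1%, 29.0% and 23.6% over the stretches shown.
GluProRS: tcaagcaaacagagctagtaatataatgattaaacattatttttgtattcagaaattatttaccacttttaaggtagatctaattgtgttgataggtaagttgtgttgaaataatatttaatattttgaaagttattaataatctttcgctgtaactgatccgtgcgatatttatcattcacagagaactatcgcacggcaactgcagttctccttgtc
ThrRS: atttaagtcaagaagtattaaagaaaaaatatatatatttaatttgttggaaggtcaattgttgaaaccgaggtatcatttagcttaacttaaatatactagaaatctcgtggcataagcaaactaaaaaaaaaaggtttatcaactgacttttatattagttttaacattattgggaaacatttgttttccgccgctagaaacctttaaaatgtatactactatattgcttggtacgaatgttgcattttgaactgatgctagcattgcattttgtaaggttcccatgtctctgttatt
IleRS: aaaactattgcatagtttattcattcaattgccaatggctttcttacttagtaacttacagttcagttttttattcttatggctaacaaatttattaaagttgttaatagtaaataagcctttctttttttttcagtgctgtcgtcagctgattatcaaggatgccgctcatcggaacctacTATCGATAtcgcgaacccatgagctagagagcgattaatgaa
ProRS-m: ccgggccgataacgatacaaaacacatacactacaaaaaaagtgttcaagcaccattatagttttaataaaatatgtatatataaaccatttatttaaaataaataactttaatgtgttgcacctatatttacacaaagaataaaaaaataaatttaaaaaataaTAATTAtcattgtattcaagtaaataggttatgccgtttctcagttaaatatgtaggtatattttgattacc
ArgRS: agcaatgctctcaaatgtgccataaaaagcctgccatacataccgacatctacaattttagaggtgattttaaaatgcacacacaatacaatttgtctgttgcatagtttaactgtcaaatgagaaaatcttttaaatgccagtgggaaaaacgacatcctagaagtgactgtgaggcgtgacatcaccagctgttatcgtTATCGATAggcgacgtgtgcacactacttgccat
HisRS: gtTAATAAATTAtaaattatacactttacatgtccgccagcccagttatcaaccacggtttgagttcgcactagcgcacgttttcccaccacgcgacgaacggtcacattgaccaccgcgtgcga

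Peaks lay at the start sites of 10 synthetase genes and near 6 more, a larger share than over all protein-coding genes. In the series list 10 of 33 genes (30.3%) had a TSS summit, beside 18.7% of all protein-coding genes. The wider window held a summit for 16 genes (48.5%), beside 33.3% of all genes. These shares were not matched for promoter layout. Start sites facing that of another gene were more frequent among the synthetase genes, 69.7% beside 35.2% of all genes, as described below. The genes with a TSS summit were the cytoplasmic SerRS, ThrRS, IleRS, AsnRS, ArgRS, MetRS and HisRS, the bifunctional GluProRS and the mitochondrial LeuRS-m and ProRS-m.

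Each replicate alone gave fewer genes, and the share over all genes fell as well. Replicate 1's list had a TSS summit at 9 synthetase genes (27.3%), beside 15.5% of all genes. Replicate 2's list had one at 7 (21.2%), beside 12.1%. Within 2 kb the counts were 15 (45.5%) for replicate 1, beside 28.1% of all genes, and 13 (39.4%) for replicate 2, beside 22.2%. The synthetase genes thus stood above the share of all genes in both replicates by both rules, a description for which no test was run. The excess in the wider window was not seen when each summit counted only for the gene with the nearest TSS, which left 6 synthetase genes (18.2%) beside 17.8% of all genes. The 6 were ArgRS, AsnRS, HisRS, IleRS, MetRS and SerRS, all with a TSS summit. GluProRS, ThrRS, ProRS-m and LeuRS-m, the other genes with one, were not kept. The share at the TSS under this assignment was not set against that of all genes. In the conservative list the counts were 10 at the TSS, beside 17.7% of all genes, and 15 within 2 kb, beside 31.4%.

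The cytoplasmic enzymes' genes held most of the TSS peaks. In the series list 7 of 17 cytoplasmic genes (41.2%) and 2 of 15 mitochondrial genes (13.3%) had a summit at the TSS, besides GluProRS. In replicate 1 these counts were 6 (35.3%) and 2 (13.3%), and in replicate 2 they were 5 (29.4%) and 1 (6.67%). The cytoplasmic genes were above the all-gene share in every list. That share was 18.7% in the series list, 15.5% in replicate 1 and 12.1% in replicate 2. The mitochondrial shares there were lower, but rested on 2, 2 and 1 genes, too few to give a direction. In the conservative list 6 cytoplasmic (35.3%) and 3 mitochondrial genes had one, and the mitochondrial share was then above that of all genes. Within 2 kb the series list gave 10 cytoplasmic (58.8%) and 5 mitochondrial genes (33.3%), and the mitochondrial share equalled the 33.3% of all genes.

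By catalytic fold, class I genes were near the share of all genes and class II genes above it. A TSS summit in the series list was found for 4 of 18 class I genes (22.2%) and 5 of 14 class II genes (35.7%), beside 18.7% of all genes. Within 2 kb the counts were 6 (33.3%) and 9 (64.3%), beside 33.3%. The replicates gave the same order, with 3 class I and 5 class II genes at the TSS in replicate 1, and 2 and 4 in replicate 2. These are small counts, with differences of a few genes.

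Among other gene families of translation, the synthetase genes stood between the initiation factors and the ribosomal proteins by TSS summits in the series list. Of 93 cytoplasmic ribosomal protein genes 50 (53.8%) had a TSS summit in the series list, and of 73 mitochondrial ribosomal protein genes 26 (35.6%) did. Of 44 initiation factor genes 10 (22.7%) did. In replicate 2 the shares were 41.9%, 21.9% and 13.6%, so the synthetase genes' 21.2% was then close to that of the mitochondrial ribosomal proteins. Within 2 kb replicate 2 gave 39.4% of the synthetase genes and 34.2% of the mitochondrial ribosomal protein genes, the reverse order. The families differ in size and promoter layout, and no test of the differences between them was run.

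**Figure D1:**
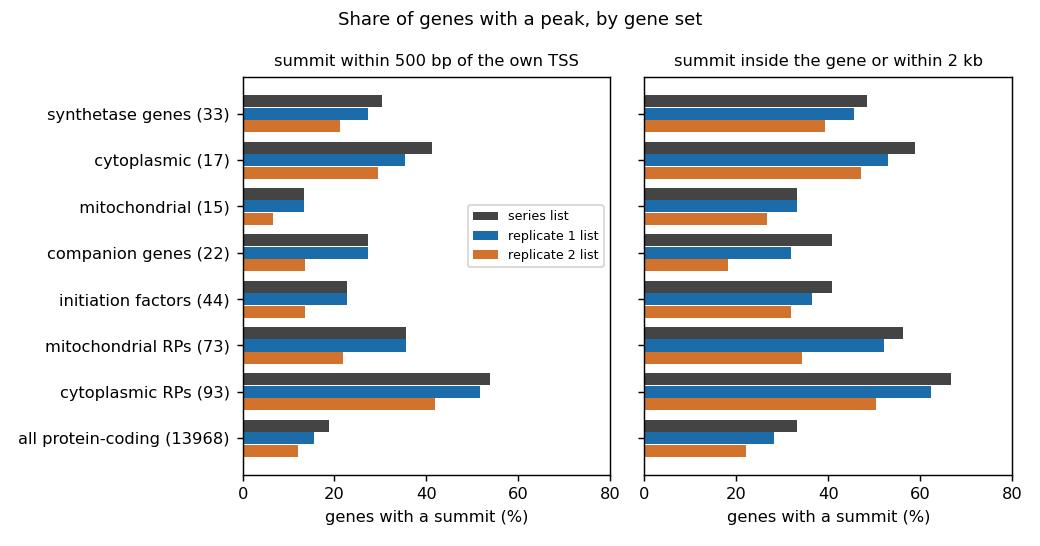
Share of genes with a summit (%, horizontal axis) for the synthetase genes, their cytoplasmic and mitochondrial members, the companion genes, other families of translation (RP, ribosomal protein) and all 13968 protein-coding genes. The left panel counts TSS summits and the right panel those of the wider window; bars are the series list and each replicate's list, with the synthetase genes at 30.3%, 27.3% and 21.2% on the left and all genes at 18.7%, 15.5% and 12.1%.

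The strongest TSS peak belonged to SerRS, the cytoplasmic enzyme that charges serine transfer RNAs. Its peak spanned chr2L:3037254-3037489 with its summit 26 bp inside the gene, in the 5′ UTR. The series signal was 377, rank 188 of 3822, and the replicates' own signals were 235 in replicate 1 and 144 in replicate 2. The peak was in both replicates' lists. The TSS of CG17260, on the opposite strand, was 34 bp from the summit, and the gap between the facing start sites was 8 bp.

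GluProRS makes the fused enzyme for glutamate and proline, which in animals is part of the multisynthetase complex. Its peak at chr3R:23958425-23958642 had a signal of 356, rank 211, with 220 in replicate 1 and 140 in replicate 2. The summit was 139 bp upstream of the GluProRS TSS and 121 bp from that of AP-1sigma, which encodes a subunit of a clathrin adaptor. The summit thus lay in the 260 bp between the facing start sites and was nearer to AP-1sigma. Both replicates' lists held it.

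ThrRS, the threonine enzyme, and IleRS, the isoleucine enzyme, followed. The ThrRS peak at chr2L:12103345-12103674 had a signal of 225, rank 508, with 135 in replicate 1 and 90.6 in replicate 2. Its summit was 241 bp upstream of ThrRS and 225 bp from Patsas, close to the middle of a gap of 466 bp. The IleRS peak at chr3L:22288439-22288550 had a signal of 200, rank 611, with 124 in replicate 1 and 73.3 in replicate 2. Its summit was 144 bp upstream of IleRS and 326 bp from Hem, which encodes a subunit of the WAVE complex of actin assembly. Both peaks were in both replicates' lists, and in both replicates ThrRS had the higher value.

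ProRS-m, the mitochondrial proline enzyme, was the last of the 5 genes found at the TSS in every list. Its peak at chr3L:2651865-2652194 had a signal of 136, rank 1125, with 87.3 in replicate 1 and 49 in replicate 2. The summit was 180 bp upstream of ProRS-m and 58 bp from the TSSs of Snup, the snurportin gene of nuclear import of small ribonucleoproteins, and of CG42304. The start sites of Snup and CG42304 coincide there, so the peak cannot be assigned to 1 gene by distance. These 5 genes kept the same order of signal in both replicates. The series list, made from both, had that order too and is no separate agreement.

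The other 5 TSS peaks of the series list were weak and were found in 1 replicate's list or in neither. LeuRS-m, the mitochondrial leucine enzyme, had a peak at chr3L:4825572-4825901 with a signal of 71.5, rank 2475, from 37.5 in replicate 1 and 32.3 in replicate 2. Neither replicate's list held it. Its summit was 116 bp upstream of LeuRS-m and 50 bp from Dhc64C, the heavy chain gene of cytoplasmic dynein. A stronger peak lay farther out at chr3L:4824915-4825096, 856 bp upstream of LeuRS-m and 690 bp from the Dhc64C TSS, and its signal was 470, with 306 for replicate 1 and 163 for replicate 2. That stronger peak was in both replicates' lists.

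AsnRS and ArgRS, the cytoplasmic enzymes for asparagine and arginine, had nearly equal signals. The AsnRS peak at chr2L:19131910-19132239 had a signal of 70.1, rank 2537, from 34.9 in replicate 1 and 36.4 in replicate 2, and was in the list of replicate 1 alone. Its summit was 121 bp upstream of AsnRS and 248 bp from DCTN6-p27, a dynactin subunit gene. The ArgRS peak at chrX:15844135-15844464 had a signal of 68.8, rank 2594, from 38.6 in replicate 1 and 35.9 in replicate 2, and was in the list of replicate 2 alone. Its summit was 155 bp upstream of ArgRS and 176 bp from CG8578. For both genes the replicates' values were close, but the scales differ between the lists, so this is no measure of agreement.

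MetRS and HisRS, the cytoplasmic enzymes for methionine and histidine, each passed the threshold in 1 replicate. The MetRS peak at chr2R:18850535-18850864 had a signal of 65.3, rank 2765, from 52.1 in replicate 1 and 12 in replicate 2, where it missed the threshold. Its summit was 101 bp upstream of MetRS and 144 bp from CG15084. The HisRS peak at chrX:18515218-18515547 had a signal of 57.1, rank 3170, from 20.9 in replicate 1, where it missed the threshold, and 37.3 in replicate 2. Its summit was 45 bp upstream of the annotated TSS, which HisRS shares with Bx, a gene of a LIM-only protein on the same strand. HisRS was the 1 TSS peak whose own q value, 0.1, was above 0.05. The conservative list held neither MetRS nor HisRS.

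**Figure D2:**
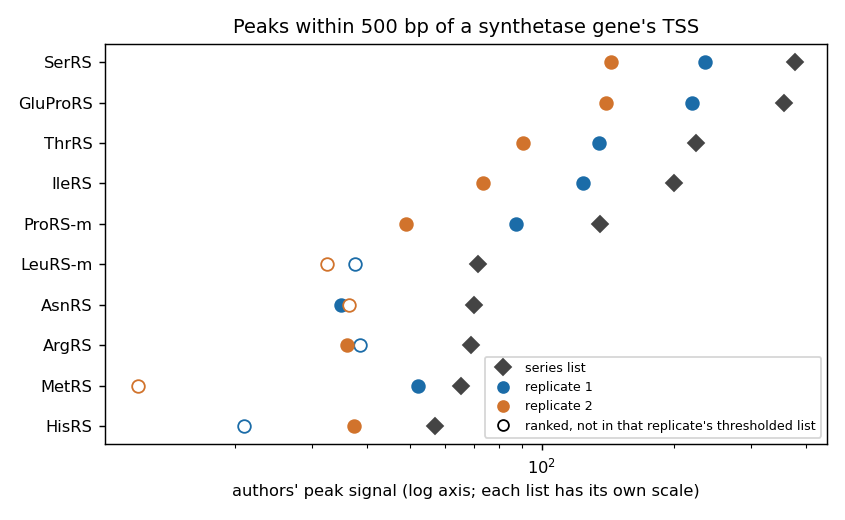
Authors' peak signal (log axis) of the 10 peaks within 500 bp of a synthetase gene's TSS, in the series list (diamonds) and in each replicate's own ranked list (circles; open where the peak was not in that replicate's thresholded list). The 5 genes from SerRS (377) to ProRS-m (136) have filled circles for both replicates, and the 5 from LeuRS-m (71.5) to HisRS (57.1) do not.

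The synthetase peaks were of ordinary strength for TSS peaks. The median series signal over the 10 genes was 104 (range 57.1 to 377), beside 108 over the 2606 genes with such a summit. In replicate 1's list the median over 9 genes was 87.3, beside 75.3 over all genes, and in replicate 2's list the median over 7 genes was 73.3, beside 62.5. Of the 10 summits 9 were upstream of the own TSS, where 90.0% of all genes with a TSS summit had theirs. The median distance from the TSS was 130 bp, beside 141 bp over all genes.

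ArgRS-m and AspRS had a TSS summit in the list of replicate 1 and in the conservative list, but not in the series list. The ArgRS-m peak, of the mitochondrial arginine enzyme, had a conservative-list signal of 66.0 at chr3R:7886718-7887047, 162 bp upstream of its TSS and 150 bp from CG17816, with 36.6 in replicate 1 and 30.2 in replicate 2. The AspRS peak, of the cytoplasmic aspartate enzyme, had a signal of 59.1 at chr2R:12879852-12880181, with 38.7 in replicate 1 and no overlapping entry in replicate 2's own ranked list. The ranked list behind the conservative list holds 26.7 as the signal of its second input there. The AspRS peak lay in an intron, 267 bp upstream of an internal AspRS start site and 213 bp from Nmda1. In the ranked list behind the series list these entries had a global IDR of 0.819 and 0.676, while the thresholded peaks had at most 0.00999. That ranked list compares parts of the pooled reads, so these IDR values do not compare the replicates. A TSS summit in any of the 4 lists was thus found for 12 genes (36.4%, beside 20.3% of all genes) and in none of them for 21.

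Facing start sites were a shared feature of the synthetase genes with a TSS summit, and of most protein-coding genes with one. A gene was called head to head when the TSS of a gene on the other strand lay within 1 kb upstream, pointing away. By this measure 23 of 33 synthetase genes (69.7%) were head to head, beside 35.2% of all protein-coding genes. A TSS summit was found at 10 of the 23 (43.5%) and at 0 of the other 10. Over all genes the shares were 34.0% of 4914 head-to-head genes and 10.3% of 9054 others. Of all 2606 genes with a TSS summit, 1672 were head to head and 934 were not. The layout was thus not particular to the synthetase genes. With the gap limited to 500 bp, a choice made after seeing the data, the counts were 9 of 21 and 1 of 12.

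The layout also differed between the groups of enzymes. Of the cytoplasmic genes 15 of 17 were head to head, and of the mitochondrial genes 7 of 15. Among the head-to-head genes 7 of 15 cytoplasmic and 2 of 7 mitochondrial genes had a TSS summit. The part of promoter layout in the difference between cytoplasmic and mitochondrial genes was not tested. By fold, 12 of 18 class I and 10 of 14 class II genes were head to head.

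Each of the 10 TSS summits had the TSS of another gene within 500 bp, beside 41.8% (818 of 1958) of all summits at a protein-coding TSS. That share counts each summit once, while a shared summit serves 2 or more genes. Counted per gene, as the 10 were, the share would be higher, and it was not computed. For 4 of them, at GluProRS, ThrRS, ProRS-m and LeuRS-m, the other gene's TSS was the nearer one. In both replicates' own lists the ThrRS summit was nearer to ThrRS, at 221 and 210 bp, than to Patsas, at 245 and 256 bp. The gap between the facing start sites had a median of 296 bp over the 10 genes (8 to 561 bp). Over the 13 head-to-head genes with no TSS summit in the series list it was 123 bp (35 to 513 bp), so the ranges overlap widely. In SerRS, the strongest, the gap was the smallest of the 10, and in HisRS, the weakest, it was the largest. Between them the order was mixed. LeuRS-m had a gap of 166 bp and a signal of 71.5, GluProRS 260 bp and 356, and IleRS 470 bp and 200.

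**Figure D3:**
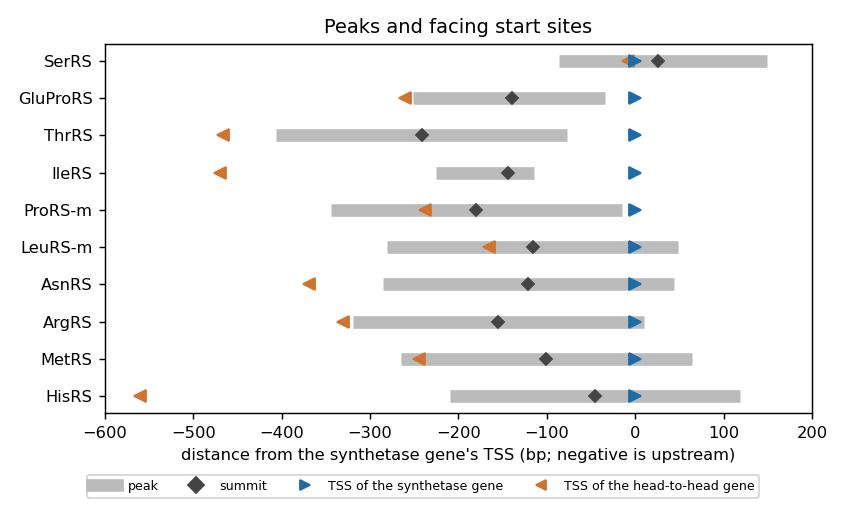
Position of each of the 10 TSS peaks of the series list (bars, summit as a diamond) relative to the synthetase gene's TSS at 0 (bp, negative is upstream), with the TSS of the head-to-head gene as a leftward triangle. Summits lie from 241 bp upstream (ThrRS) to 26 bp downstream (SerRS), and all but that of SerRS lie between the facing start sites.

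**Figure D4:**
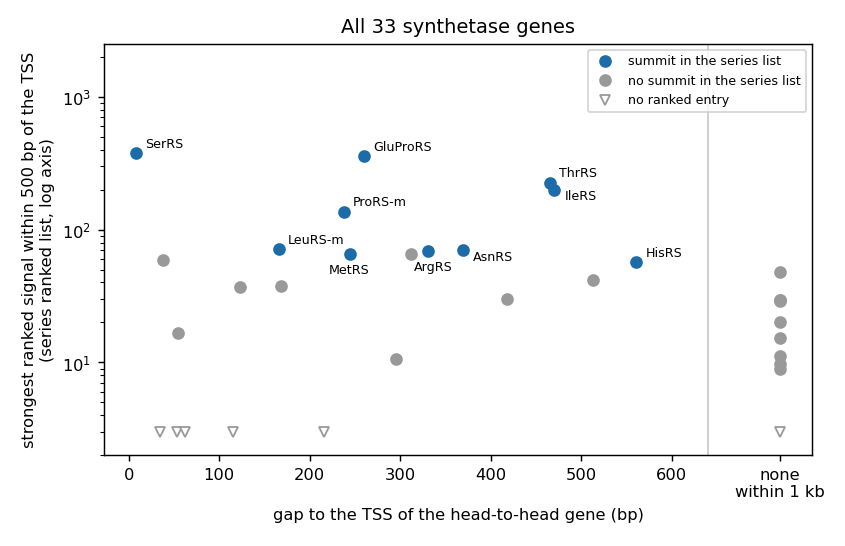
Strongest entry of the series ranked list within 500 bp of the TSS (signal, log axis) against the gap to the facing gene's TSS (bp) for all 33 synthetase genes. Open triangles are the 6 genes with no ranked entry there, and their height is arbitrary and no signal. All 10 genes with a summit in the series list (labelled) have a facing gene, beside 1672 of all 2606 protein-coding genes with such a summit. The 10 synthetase genes without a facing gene reach at most 47.8.

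A further 6 genes were covered only away from their TSS, by 8 peaks in the series list. They were 18.2% of the synthetase genes, and 14.7% of all genes were covered in this way. The strongest of all peaks near a synthetase gene was at chr2L:8376722-8377027, downstream of AlaRS, the cytoplasmic alanine enzyme, with a signal of 1058, rank 22, from 651 in replicate 1 and 410 in replicate 2. It lay 4706 bp from the nearest AlaRS TSS but 85 bp from that of CG13390 and 153 bp from that of CG17294. A weak AlaRS peak 1138 bp upstream (62.9, from 42.7 and 18.9) was 11 bp from Rcd4 and 95 bp from CG13392, and was in the list of replicate 1 alone. Both thus lay at start sites of other genes.

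The other peaks of this kind were mostly downstream of the gene as well. CysRS-m, the mitochondrial cysteine enzyme, had a peak of signal 541, rank 85, from 335 in replicate 1 and 204 in replicate 2, which was 129 bp from CG13018 and 145 bp from CG13016. AsnRS-m, the mitochondrial asparagine enzyme, had one of 172 (93.3 and 81.5), 70 bp from NiPp1, the gene of a nuclear inhibitor of protein phosphatase, and 232 bp from CG6805. GlnRS, the glutamine enzyme, had one of 107 (68.5 and 43.0), 55 bp from CG11858 and 188 bp from Kdsr, an enzyme gene of sphingolipid synthesis. All 3 peaks were in both replicates' lists, and all 3 lay at the start sites of neighbours.

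GlyRS, the glycine enzyme, was the 1 gene of the 6 whose peak had no other gene's TSS within 500 bp. Its peak at chr3L:15098770-15099099 had a signal of 128, from 83.0 in replicate 1 and 51.9 in replicate 2, and the nearest TSS, of the CTP synthase gene Ctps, was 800 bp away. SerRS-m, the mitochondrial serine enzyme, had a pair of weak peaks in its 3′ UTR, of signal 51.4 and 49.3. They were 3 bp and 468 bp from Nagk, an N-acetylglucosamine kinase gene, had q values of 0.198 and 0.262 and were in neither replicate's list. Of the 8 peaks 7 thus had another gene's TSS within 500 bp, and 5 lay downstream of the synthetase gene.

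No summit by either rule in any of the 4 lists was found for 15 genes (45.5%), beside 64.0% of all genes. They were 9 of the 15 mitochondrial genes and 6 of the 17 cytoplasmic ones, and 11 of the 18 class I and 4 of the 14 class II genes. Of these 15, AlaRS-m, AspRS-m, LeuRS, LysRS and TrpRS had no entry within 500 bp of the TSS in the series ranked list either. The replicates' own ranked lists held entries there for AspRS-m (30.9) and AlaRS-m (7.37) in replicate 1 and for LeuRS (2.43) in replicate 2. They held none for LysRS and TrpRS. Among the rest of the 15, the highest entry of the series ranked list was that of ValRS, the cytoplasmic valine enzyme, at 41.8 with a global IDR of 0.0487.

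The ranked entries of the remaining genes were lower. IleRS-m had 29.7, GluRS-m had 29.5 and CysRS had 29.2. TyrRS-m had 16.6, TrpRS-m had 15.4 and ValRS-m had 11.2. These signals were below those of the 10 TSS peaks of the series list, which began at 57.1. TyrRS had 10.7, PheRS-m had 9.74 and MetRS-m had 8.96. The 6 genes covered away from the TSS, AsnRS-m excepted, also had a ranked entry at the TSS itself, the highest being that of AlaRS at 47.8. Without read counts, a missing summit shows that no peak passed the threshold and not that the protein was absent.

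Of 22 companion genes of the pathway, 6 (27.3%) had a TSS summit in the series list, 6 in replicate 1's list and 3 (13.6%) in replicate 2's. Replicate 1's list had crc and the elongation factor gene eEF2 in place of the series list's AIMP1 and beta-PheRS. The shares of all genes were 18.7%, 15.5% and 12.1%, so that of the companions in replicate 2 was near them. The strongest was eEF1gamma, a subunit of the elongation factor complex that brings charged transfer RNA to the ribosome, with a signal of 279 at 39 bp upstream (151 in replicate 1 and 131 in replicate 2). The gene of the elongation factor itself, eEF1alpha1, had 136 at 69 bp upstream (86.2 and 48.0). GatA and GatC, subunits of the amidotransferase that completes mitochondrial glutamine transfer RNA, had 177 at 81 bp (95.3 and 79.8) and 70.0 at 61 bp upstream (44.6 and 27.2). GatB, the other subunit, had no summit in any list.

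The phenylalanine enzyme of the cytoplasm and the scaffold of the multisynthetase complex were covered in part. beta-PheRS had a peak of 85.8 at 78 bp upstream (54.4 in replicate 1 and 31.0 in replicate 2), in neither replicate's list, while alpha-PheRS had a TSS summit in the conservative list alone and a summit within 2 kb in all 4 lists. AIMP1, a scaffold protein of the complex, had a weak peak of 59.0 at 24 bp upstream (29.3 and 27.3, q of 0.0799), in neither replicate's list. AIMP2 and AIMP3 had none. The eIF2-alpha kinase genes Gcn2 and PEK, which act when amino acids run short or the endoplasmic reticulum is stressed, had no summit by either rule. crc, the fly gene of the ATF4 factor that acts below these kinases, had a TSS summit in replicate 1's list alone, and a summit within 2 kb in every list but that of replicate 2.

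Motifs were counted within 100 bp of the 10 TSS summits, and within 250 bp. The DRE, TATCGATA, was within 100 bp of 0 of the 10 summits, beside 8.22% of the 1958 promoter summits. Within 250 bp it was at 2, ArgRS and IleRS, beside 14.2%, and in the sequences shown above its first base lies 34 bp upstream of the ArgRS TSS and 42 bp upstream of the IleRS TSS. In the 300 bp promoters (250 bp before to 50 bp after the TSS), 5 of 33 synthetase genes held it, AlaRS, ArgRS, IleRS, PheRS-m and TrpRS, beside 9.36% of all 13968 promoters. Of these 5, ArgRS and IleRS had a TSS summit.

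TAATTA, a core that homeodomain proteins bind, was within 100 bp of 0 of the 10 summits, beside 18.9% of promoter summits, and within 250 bp of 5 (ArgRS, IleRS, MetRS, ProRS-m and ThrRS), beside 35.8%. The paired-class dimer with a spacer of 2 bases was within 100 bp of 1 summit, that of HisRS, beside 3.52%, with its centre 74 bp from the summit. The dimer with a spacer of 3 bases was at 0, beside 3.17%. The dimers and TAATTA share half-sites, so matches to them are not independent. Absence of a match says that these letters are not in the window.

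Of the other promoter motifs, TATAAA was at the most summits. Motif 1, GGTCACACT, was within 100 bp of 1 summit, that of ProRS-m, beside 2.45% of promoter summits, and the E-box CACGTG of 1, that of LeuRS-m, beside 2.25%. The ATF4 response element TGATGNAAT was at 0, beside 0.562%, within 250 bp of 2 (AsnRS and GluProRS), beside 1.79%, and in 0 of the 33 promoters, beside 1.23%. GAGAG was at 1 summit, that of ArgRS, beside 19.7%, and TATAAA at 6, beside 37.8%. The 6 with TATAAA were AsnRS, HisRS, MetRS, ProRS-m, SerRS and ThrRS, and no sequence is judged here as a working TATA box. The G+C content within 100 bp of the 10 summits ran from 26.9% to 45.8% with a median of 29.4%, beside a median of 34.3% over promoter summits, and 7 of the 10 were below that median. HisRS (45.8%) and LeuRS-m (44.3%), both among the weak peaks, were the highest, and the next was ArgRS at 37.3%.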

How the data were processed

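The lists hold TF ChIP-seq peaks of 2 replicates. Per the labels and deposited notes, positions are on dm6, and a list was made from one replicate's alignments or from both, with a further file of unstated role. Aligner, peak caller, versions and filters: not given in the sources used here. Each peak's signal is the authors' deposited value, whose scaling is not stated. The authors' −log10 q values were turned back into q, and 942 series peaks on the arms (24.6%) had a q above 0.05. The deposited score is the authors' IDR scaled to at most 1000; the −log10 global IDR of the ranked lists was used in its place, and the thresholded series peaks had at most 0.00999. No read counts are in the lists, so depth is unknown and no interval is given.

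Summits were set against Ensembl release 115 and the release 6 sequence, on the 7 arms. Genes were matched by symbol, and a TSS is that of any protein-coding transcript. Replicate values are from each replicate's own ranked list (the entry overlapping the peak), not, as planned, from a ranked list's 2 input columns. For 19 of 19 member peaks of the series list they equalled the inputs of the ranked list behind the conservative list. For the AspRS peak of the conservative list replicate 2 had no entry of its own. The ranked list behind the series list compares parts of the pooled reads, not replicate 1 with replicate 2. Its IDR is therefore no measure of agreement between the replicates. Motifs were searched on both strands. With 1 group no test was run: counts are given beside those over all genes. The members and lists were chosen with earlier results of these data known. By rule, each gene with a TSS summit in the series list or a replicate's list is given in full, the rest by their strongest peak or ranked entry, and other genes only where their TSS is within 500 bp of a member's summit, or as covered companions. Ctps, Gcn2, PEK, GatB, AIMP2, AIMP3, crc and eEF2 fall outside it and were named after their values were seen. Alternatives tried were each replicate's list, the conservative list, a q of at most 0.05, a global IDR of at most 0.0001, overlap of at least 1 bp, other windows and other assignments. The assignment code was checked on simulated data of 200 planted summits. It found the same 153 pairs of summit and gene within 500 bp as a direct search of the same annotation. A match was required for the run to go on, so the check covers the search code only. Python 3.11.15 with numpy 2.4.6, pandas 2.3.3 and matplotlib 3.10.9 was used.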

Additional observations from a re-analysis of the deposited data

How the results depend on the processing

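The count of 10 synthetase genes with a TSS summit was 5 at a global IDR of at most 0.0001, or 15.2% beside 9.0% of all genes, where AsnRS, ArgRS, HisRS, LeuRS-m and MetRS were lost. It ran from 7 to 9 when either replicate was left out, and from 9 to 10 under the q filter, overlap, the other windows, the most upstream TSS and the conservative list. The count of 16 within 2 kb was 6 when a summit counted only for the gene with the nearest TSS, or 18.2% beside 17.8% of all genes, so the larger share of the synthetase genes was not seen there. That assignment also dropped GluProRS, ThrRS, ProRS-m and LeuRS-m from the genes with a TSS summit, and the TSS share was not recomputed over all genes. The count within 2 kb ran from 13 to 15 when either replicate was left out and was 24 within 5 kb (72.7%, beside 46.2% of all genes). It was 12 within 1 kb (36.4%, beside 27.9%) and 14 under the q filter (42.4%, beside 28.8%). At a global IDR of at most 0.0001 it was 11 (33.3%, beside 16.6%). The median signal of 104 was 73.3 without replicate 1 and 87.3 without replicate 2, each on its own list's scale. The DRE count of 0 within 100 bp was 2 within 250 bp. No paired analysis was possible because there is 1 group. With 2 replicates, no control libraries analysed here and no read counts, no error could be attached to a single peak, and weak peaks rest on the replicate named beside them.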

Other observations

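By chromosome arm, TSS summits of the series list were at 2 of 3 synthetase genes on X (beside 18.6% of all genes there), 3 of 6 on 2L (18.2%), 1 of 8 on 2R (17.0%), 3 of 10 on 3L (19.9%) and 1 of 6 on 3R (684 of 3421 genes). Both X genes, ArgRS and HisRS, were in the list of replicate 2 and not in that of replicate 1, and the 2R gene, MetRS, was in that of replicate 1 and not in that of replicate 2. Of the 19 peaks near synthetase genes in the series list 17 had the higher signal in replicate 1's ranked list, the exceptions being AsnRS and HisRS. The same share over all series peaks was not counted. Replicate 1's thresholded list had the higher median signal over all its peaks as well, 67.5 beside 57.1 in replicate 2's. In the ranked list behind the series list 3922 entries reached the lowest IDR measure of the thresholded peaks, and 100 of them were absent from the series list.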
